A study of Homo sapiens with 23 samples.

Results

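Mediator is the large coactivator complex that carries signals from DNA-bound transcription factors to RNA polymerase II. It is built from a head and a middle that contact the polymerase, a backbone subunit that holds them together, a tail that receives activators, and a kinase module that docks on and off the core and keeps the polymerase from binding while it is there. In colorectal cancer the kinase CDK8 is known as a driver of transcription by beta-catenin, and the question here was how acyl marks on histone H3 lysine 18 (H3K18) and histone H4 lysine 12 (H4K12) lay over the genes that encode the complex. The set held 33 of 20033 protein-coding genes of GENCODE release 44. They were taken by name as every protein-coding gene called MED with a number and, in some, a letter, together with the kinases CDK8 and CDK19 and their cyclin CCNC. Head genes were MED6, MED8, MED11, MED17, MED18, MED20 and MED22. Middle genes were MED1, MED4, MED7, MED9, MED10, MED19, MED21, MED26 and MED31. The backbone gene was MED14. Tail genes were MED15, MED16, MED23, MED24, MED25, MED27, MED28, MED29 and MED30. Kinase module genes were MED12, MED12L, MED13, MED13L, CDK8, CDK19 and CCNC.

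The data were lists of enriched regions called from chromatin immunoprecipitation and sequencing (ChIP-seq) in SW480, an established line of human colorectal adenocarcinoma cells. Cells received 10 mM sodium propionate (NaPr), 1 mM sodium butyrate (NaBu) or no short-chain fatty acid, for 12 to 16 h in the treated cultures. There were 2 libraries each of propionyl H3K18 (H3K18pr) and propionyl H4K12 (H4K12pr) in NaPr, of butyryl H3K18 (H3K18bu) and butyryl H4K12 (H4K12bu) in NaBu, and of acetyl H3K18 (H3K18ac) and acetyl H4K12 (H4K12ac) in NaPr, NaBu and untreated cells, with 1 input library of unenriched chromatin for each condition. The labels do not say whether the 2 libraries of a group came from separate cultures, so p-values measure the spread between these libraries, which may be technical. The untreated titles carry cnt1 and cnt2 for both acetyl marks. For the propionyl and acetyl marks in NaPr the study's captions call the 2 libraries experimental replicates, without saying what was repeated. Each gene was read in both of these ways: whether any region touched the window reaching 1 kb either side of its start, the 5′ end of the gene, and what percentage of its body, from start to end, lay under regions.

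Several properties of the lists moved with the groups. The 20 acylation lists held between 8158 regions (H4K12bu replicate 2) and 208823 (H4K12ac untreated replicate 1). Total reads are not in the lists. Fold and p-value together gave back whole pileups in the NaPr and untreated acylation lists, and the lowest background over the shortest region, taken as a fragment length, gives an estimate of 3.38 to 8.41 fragments per kb in the propionyl libraries, 24.2 to 38.8 in the NaPr acetyl libraries and 11.3 to 38.7 in the untreated ones. This estimate moves with propionyl against acetyl, and its part in the results was not tested. NaBu lists could not be solved in this way. The shortest region of a list was 339 to 349 bp in the propionyl libraries and 179 to 229 bp in the acetyl libraries of NaPr, so a propionyl region covered more bases at the least, and the part of this in coverage differences was not tested. Run tags in the file names put the propionyl libraries in another sequencing run than the NaPr and untreated acetyl libraries, and all NaBu libraries in another again. Sequencing run thus cannot be told apart from the contrast of propionyl with acetyl or of NaBu with untreated cells, whereas butyryl against acetyl and NaPr against untreated each fall within 1 run. H3K18ac NaPr replicate 1 stood apart from its label. Over 18036 genes its body coverage, as log2(percent + 1), correlated at r = 0.649 with H3K18ac NaPr replicate 2 and at 0.890 with each H4K12ac untreated library. H4K12ac NaBu replicate 2 held 11680 regions against 88658 in replicate 1. Where a body coverage contrast rests on H3K18ac NaPr replicate 1 or H4K12ac NaBu replicate 2, the Mediator set's count and median are given with and without it. Differences of single genes include these libraries unless the text says otherwise.

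Epithelial and intestinal markers (EPCAM, KRT8, KRT18, KRT19, CDX1, CDX2 and VIL1) had a region in the start window for 3 to 7 of 7 genes in each acylation library. Markers of blood, endothelial, fibroblast, liver and neuronal or endocrine cells had 0 to 3 of 7. The label of an epithelial line was not contradicted by these counts.

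The stretches before the starts of 6 genes are shown because their starts carry the contrasts described further on, between propionyl and acetyl (MED16 and MED25) and between paralogs (CDK8 and CDK19, MED12 and MED12L). They are RefSeq promoter sequences on GRCh38.p14, which held entries for 25 of the 33 genes, limited to the 250 bases before the start and to the longest run in it that no GENCODE transcript annotates as UTR. Capitals mark matches on either strand to the GC box GGGCGG, the CCAAT box, the TATA motif TATAAA, the ETS motif CGGAAG, the AP-1 motif TGANTCA and the YY1 motif AAGATGG. No marked match overlapped another.
MED16, chr19:893219-893437, minus strand: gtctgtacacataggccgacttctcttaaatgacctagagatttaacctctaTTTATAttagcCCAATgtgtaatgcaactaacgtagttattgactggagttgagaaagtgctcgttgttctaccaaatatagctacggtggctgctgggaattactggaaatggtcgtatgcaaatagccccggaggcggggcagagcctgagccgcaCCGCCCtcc
MED25, chr19:49818039-49818288, plus strand: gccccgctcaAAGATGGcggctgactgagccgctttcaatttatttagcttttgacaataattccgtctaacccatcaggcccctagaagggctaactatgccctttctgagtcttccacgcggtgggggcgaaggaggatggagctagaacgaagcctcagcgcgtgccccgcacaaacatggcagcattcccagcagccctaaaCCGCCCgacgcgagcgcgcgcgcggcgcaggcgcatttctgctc
CDK8, chr13:26253879-26254103, plus strand: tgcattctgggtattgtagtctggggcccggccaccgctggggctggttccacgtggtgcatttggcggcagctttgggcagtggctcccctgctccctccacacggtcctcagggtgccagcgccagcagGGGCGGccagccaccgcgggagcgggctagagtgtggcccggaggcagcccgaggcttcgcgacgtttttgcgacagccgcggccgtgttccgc
CDK19, chr6:110815470-110815570, minus strand: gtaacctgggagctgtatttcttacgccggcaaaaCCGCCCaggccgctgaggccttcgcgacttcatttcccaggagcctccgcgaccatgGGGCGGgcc
MED12, chrX:71118346-71118542, plus strand: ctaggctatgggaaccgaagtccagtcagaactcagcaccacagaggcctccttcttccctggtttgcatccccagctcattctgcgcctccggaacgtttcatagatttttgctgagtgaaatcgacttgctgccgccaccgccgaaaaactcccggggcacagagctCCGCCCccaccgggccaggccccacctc
MED12L, chr3:151085414-151085663, plus strand: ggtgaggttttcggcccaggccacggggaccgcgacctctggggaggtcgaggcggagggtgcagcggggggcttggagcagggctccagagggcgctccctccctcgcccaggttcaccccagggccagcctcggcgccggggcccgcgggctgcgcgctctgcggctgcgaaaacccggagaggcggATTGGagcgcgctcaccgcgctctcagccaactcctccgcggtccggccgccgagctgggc

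The MED16 stretch was the AT-richest of the 6, with 50.0% G and C over its 250 bases, and held a TATAAA match starting 198 bases and a CCAAT match 187 bases before the start, with a GC box 40 bases before it. MED25 held a YY1 match 240 bases and a GC box 44 bases before its start. CDK19 held GC boxes 66 and 9 bases before its start in the stretch shown, while CDK8 held 1, at 119 bases. The paralogs MED12 and MED12L differed in that MED12 had a GC box (81 bases) and MED12L, at 75.6% G and C, a CCAAT match (61 bases) and no GC box. A region overlapped the stretch in 14 of 20 acylation libraries at MED25, 10 at MED16, 10 at MED12, 7 at CDK19, 7 at MED12L and 5 at CDK8.

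Across the 25 genes with an entry, a GC box was in 15, CCAAT in 8, the ETS motif in 8, the YY1 motif in 3, AP-1 in 2 and TATAAA in 2. Among all 35116 RefSeq promoters cut to the same 250 bases, 42.6% held a GC box, 32% CCAAT, 16.5% the ETS motif, 3.7% the YY1 motif, 6.57% AP-1 and 10.7% TATAAA. Median G and C content was 59.2% in the Mediator promoters and 58.0% in all of them. These are matches of letters and say nothing of binding.

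Mediator genes often had a close neighbour. Their median length was 25589 bp, against 27471 bp over all protein-coding genes, and ranged from 2181 bp (MED11) to 351787 bp (MED12L). Another protein-coding start lay in the start window of 11 genes, 33.3% of the set against 17.4% of all genes. Among these were MED17 (TAF1D), MED20 (BYSL), MED22 (RPL7A), MED15 (KLHL22), MED19 (TMX2), MED23 (ENPP3), MED25 (FUZ), MED26, MED29 (PAF1) and MED31 (C17orf100). At these genes a region in the window may belong to either start, and the lists do not separate them.

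Nearly every Mediator start carried acetylation in untreated cells. All of the untreated H3K18ac and H4K12ac libraries had a region in 32 of 33 start windows, against 63.4 to 68.0% of all protein-coding starts. The exception in each was MED7, whose gene 5′ end lies 16154 bp from the start of its canonical transcript. At the canonical start MED7 carried a region in all 4 of these libraries and the count was 33 of 33.

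Propionylation reached 29 and 22 start windows in the H3K18pr libraries and 31 and 28 in the H4K12pr libraries. The corresponding shares of all genes were 54.8, 48.0, 61.2 and 53.7%. In the same NaPr-treated cells H3K18ac marked 32 and 31 Mediator starts, and H4K12ac 22 and 15, with 65.6, 54.2, 33.0 and 26.2% of all genes. H3K18bu reached 16 and 12 starts, and H4K12bu 6 and 7, the lowest counts of the 20 libraries. Of all genes these libraries marked 18.8, 12.7, 10.6 and 7.65%. In NaBu-treated cells H3K18ac reached 28 and 26 starts, while H4K12ac reached 21 and 11, with 58.6, 43.8, 34.0 and 14.8% of all genes. In the inputs 3 (NaPr), 0 (NaBu) and 6 (untreated) starts lay under a region. These are 9.09, 0 and 18.2% of the set, against 7.85, 2.89 and 17.8% of all starts. The Mediator share lay above the all-gene share in all 20 acylation libraries.

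**Figure D1:**
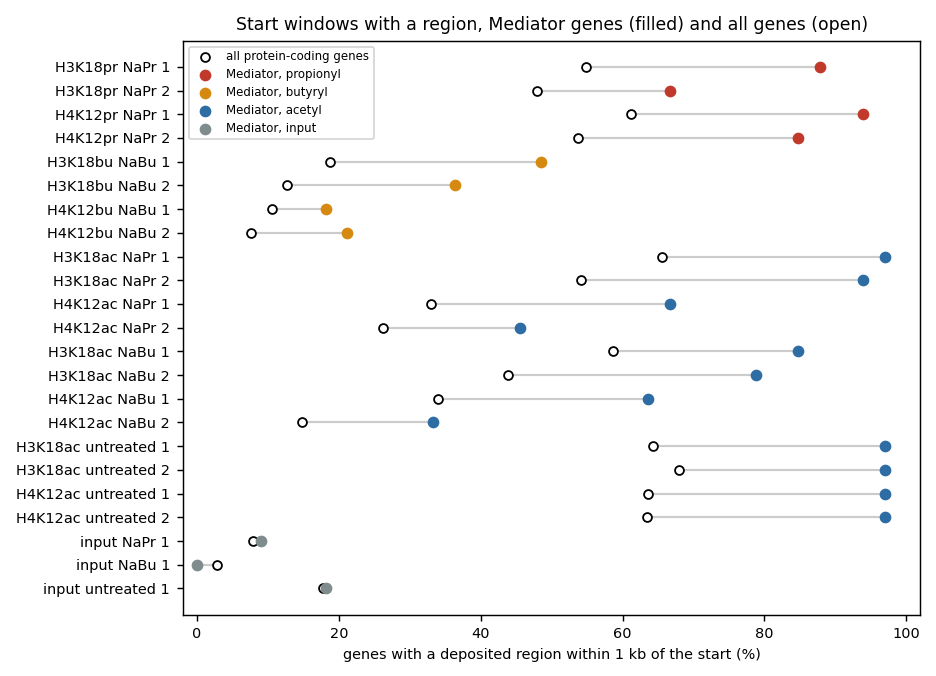
Percentage of start windows with a region (x axis) in each of the 23 libraries (rows), for the 33 Mediator genes (filled points, coloured by mark) and all 20033 protein-coding genes (open points). Filled points lie to the right of open points in every acylation library, from 18.2% against 10.6% in H4K12bu replicate 1 to 97.0% against 64.3% in H3K18ac untreated replicate 1.

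MED1, MED18 and MED22 carried a region at the start in all 20 acylation libraries. MED1 binds nuclear receptors, MED18 sits in the movable part of the head with MED20, and MED22 pairs with MED11. MED18 and MED22 also had a region in the NaPr input. MED20 was marked in 19 libraries, and CCNC, MED29 and MED31 in 18. At the other end, MED7 was marked in 0 at its gene 5′ end, MED23, a tail subunit that receives signalling to ELK1, was marked in 8, MED12L in 9, and CDK8, MED11, MED12, MED16 and MED26 in 11. The 3 genes marked throughout were marked in both butyryl marks too, as were MED20 and MED31.

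**Figure D2:**
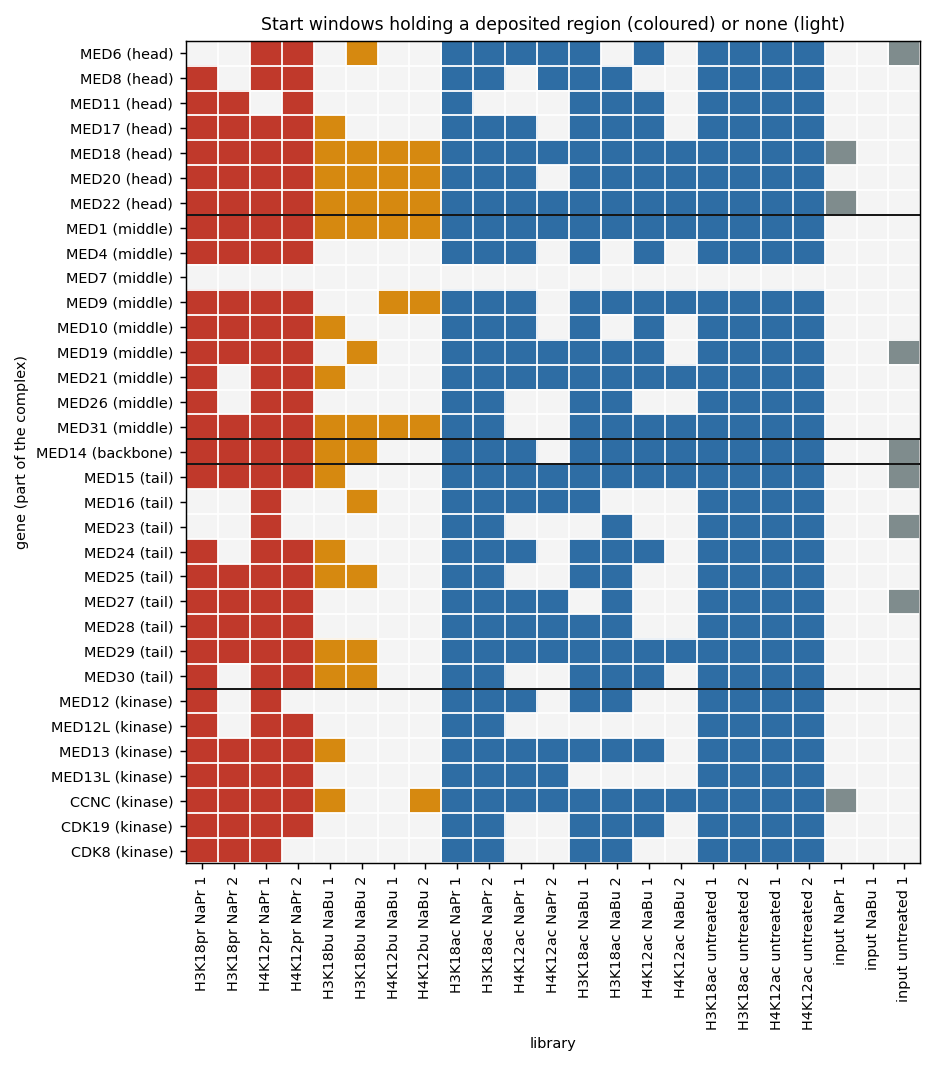
Grid of the 33 genes (rows, grouped by part of the complex) against the 23 libraries (columns). A coloured cell is a start window with a region a light cell is none, and dark grey marks input libraries. The 4 untreated acetyl columns are filled except at MED7, and the butyryl columns are filled mainly at MED1, MED18, MED20, MED22 and MED31.

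At H3K18 a region was present in all 4 propionyl and acetyl libraries of NaPr-treated cells at 21 of 33 starts, against 37.3% of all genes. MED6, MED16 and MED23 had one in both H3K18ac NaPr libraries and neither H3K18pr library, a pattern held by 4.39% of all genes, and 0 genes of the set showed the opposite, held by 0.674%. MED6 is a conserved head subunit, and MED16 and MED23 are neighbours in the tail. With 8158 regions in every list, 4 starts had a region in all 4 libraries (CCNC, MED13, MED22 and MED31), against 5.97% of all genes. Another 5 had one on the acetyl side only (MED1, MED14, MED15, MED16 and MED29), against 3.69% of all genes. MED6 and MED23 had none in any library, as did 30.3% of the set in total and 71.9% of all genes. With 2 libraries against 2 an exact permutation test cannot go below a 2-sided p of 0.333, so these patterns are given without a test.

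At H4K12, CDK19, MED12L, MED25, MED26, MED30 and MED31 had a region in both H4K12pr libraries and neither H4K12ac NaPr library, which 18.1% of all genes did, and 0 genes of the set had the reverse, which 0.679% did. A share of 6 in 33 is the share of all genes. In 13 other starts the windows had a region in all 4 libraries, against 16.7% of all genes. When every list was reduced to its 8158 strongest regions, 7 starts were on the propionyl side (MED4, MED9, MED10, MED17, MED25, MED29 and MED31) and 3 on the acetyl side (MED6, MED16 and MED21). These were 21.2 and 9.09% of the set, against 4.56 and 1.09% of all genes. No region in any of the 4 reduced lists was found at 42.4% of the set and 78.1% of all genes.

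MED16 had acetyl regions at its start in NaPr-treated cells where H3K18pr had no region. The gene lies at chr19:867630-893218 on the minus strand. Its strongest region within 1 kb of the start of the canonical transcript had a fold over background, as the peak caller gave it, of 8.22 and 14.3 in the H3K18ac NaPr libraries and 4.53 and 4.99 in the H4K12ac NaPr libraries. Neither H3K18pr library had one, and H4K12pr had one in replicate 1 only, at 2.67-fold. By p-value the acetyl regions ranked in the top 0.864, 0.668, 0.474 and 0.229% of their lists, and the propionyl region at 72.9% of its list. In untreated cells the fold was 7.28 and 9.38 for H3K18ac and 4.42 and 5.52 for H4K12ac.

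MED25, whose product binds the activation domains of VP16 and of ETS factors, had a start region in all 4 propionyl libraries. It lies at chr19:49818282-49840383 on the plus strand and shares its start window with FUZ. Its start region was 40.0- and 18.7-fold with H3K18pr and 14.9- and 15.1-fold with H4K12pr. With H3K18ac NaPr it was 2.68- and 3.83-fold, and H4K12ac NaPr had none. The propionyl regions were 3175, 3351, 3024 and 1686 bp wide and ranked in the top 0.358, 0.766, 0.304 and 0.418% of their lists. In H3K18ac NaPr the widths were 574 and 664 bp and the ranks 10.8 and 4.93%. Estimated depth, shortest region and sequencing run differ between these groups, and their part in folds, widths and ranks was not tested. In untreated cells acetylation at this start was present, at 11.4- and 7.38-fold for H3K18ac and 2.89- and 3.87-fold for H4K12ac.

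Over the genes of the set that had a start region, its median fold was 14.7 and 9.38 in untreated H3K18ac. H3K18pr had medians of 6.23 and 6.01, H4K12pr 5.71 and 5.85, H3K18ac NaPr 5.11 and 3.33, and H4K12ac NaPr 2.80 and 2.58. Folds are relative to each library's own background and depend on its depth, and ranks within a list depend on its length, so neither is compared between libraries. By rank the median start region stood in the top 15.8 and 13.1% of the H3K18pr lists, 5.69 and 11.4% of H4K12pr, 2.90 and 12.9% of H3K18ac NaPr, and 6.73 and 5.52% of H4K12ac NaPr. High single folds were at MED13 in untreated H3K18ac (55.2 and 25.7), MED20 in H3K18ac NaBu (29.3 and 42.1) and MED22 in untreated H4K12ac (10.2 and 11.7).

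**Figure D3:**
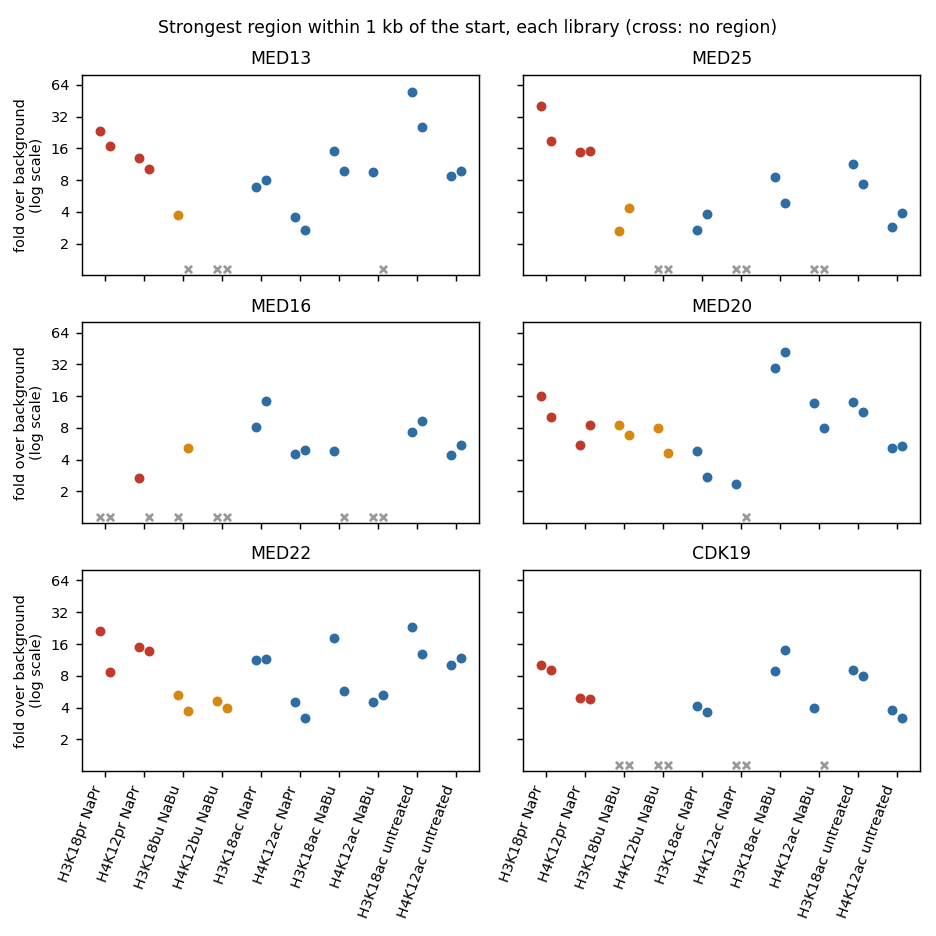
Fold over background (y axis, log scale) of the strongest region within 1 kb of the canonical start, in each acylation library (x axis, groups of 2), for MED13, MED25, MED16, MED20, MED22 and CDK19. Crosses mark libraries with no region. Within H3K18pr replicate 1 and within each H4K12pr library MED25 has the highest fold of the set. MED16 has crosses in both H3K18pr libraries, and MED20 reaches 29.3 and 42.1 in H3K18ac NaBu. Folds depend on the depth of each library and are not compared between libraries.

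Body coverage was then compared by limma over the 18036 genes covered in at least 2 libraries, all 33 Mediator genes included, as log2(percent + 1). At H3K18, limma called 0 Mediator genes between propionyl and acetyl, with 5 at an unadjusted p under 0.05, and 0.843% of all genes were called in either direction. The median difference was -0.32 for the set, with 12 of 33 genes positive, and -0.11 for all genes. Its direction turned without H3K18ac NaPr replicate 1, to 0.51 for the set, with 25 positive, and 0.29 for all genes. With 8158 regions in every list both medians were 0. The 5 were MED6, MED9, MED11, MED21 and MED23, with adjusted p from 0.12 to 0.439. MED6 had no covered base in either H3K18pr library, against 11.6 and 2.33% in H3K18ac NaPr, a difference of -2.70 ± 0.73 (SE, adjusted p = 0.12). Without H3K18ac NaPr replicate 1 the MED6 difference was -1.74. MED11, a head gene of 2181 bp, was covered over 16.2 and 14.3% in H3K18pr and 11.4 and 0% in H3K18ac. Without H3K18ac NaPr replicate 1 the count was 1, MED8, at 3.40 ± 0.44 (adjusted p = 0.0024), and without replicate 2 it was 6 (MED1, MED6, MED13, MED13L, MED21 and MED23).

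At H4K12, limma called 9 Mediator genes with higher coverage in propionyl than in acetyl libraries and 0 with lower. In this direction 27.0% of all genes were called, and 9 of 33 is 27.3%, so the share in the set is close to that of all genes. Its median difference was 0.99 and that of all genes 1.03. By part of the complex they were MED22 in the head, MED7, MED9 and MED31 in the middle, MED15, MED16, MED24 and MED29 in the tail, and CDK19 in the kinase module.

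MED29, a tail subunit, had the largest difference. It lies at chr19:39391303-39400641 on the plus strand, beside PAF1. Regions covered 52.3 and 40.9% of its body in H4K12pr and 0 and 2.33% in H4K12ac NaPr. The log2 difference was 4.69 ± 0.70 (SE, limma adjusted p = 0.000667). Outside the start window the coverage was 48.3 and 37.6% against 0 and 0%, so most of the excess lay beyond 1 kb of the start. H3K18pr covered 18.7 and 22.2%, and untreated H4K12ac 31.1 and 24.4%.

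MED22, at chr9:133338312-133348131 on the minus strand, was covered over 24.5 and 29.4% in H4K12pr and 4.14 and 0% in H4K12ac NaPr, a difference of 3.62 ± 1.04 (adjusted p = 0.0216). MED31, the small middle subunit that binds MED7, was at 9.39 and 8.15% against 0 and 0% (3.29 ± 0.44, adjusted p = 0.000315). MED31 had a single region in each H4K12pr library, none of it beyond the start window, so this difference is that of the start itself. MED9 was at 25 and 17.3% against 4.38 and 0% (3.23 ± 0.82, adjusted p = 0.0119). MED7, which forms the hinge of the middle with MED21, was at 11 and 5.07% against 0 and 0% (3.09 ± 0.66, adjusted p = 0.00499). MED24, a tail subunit beside MED16 and MED23, was at 31.3 and 24.7% against 5.53 and 3.08% (2.48 ± 0.60, adjusted p = 0.00992). In each of these genes and MED29 both propionyl libraries lay above both acetyl libraries.

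The other 3 called genes changed by less. MED15, which links Mediator to SREBP and SMAD factors, was covered over 40.0 and 24.7% in H4K12pr and 7.16 and 4.55% in H4K12ac NaPr (2.27 ± 0.50, adjusted p = 0.00573), and MED16 over 4.74 and 1.33% against 0.0313 and 0% (1.85 ± 0.57, adjusted p = 0.0289). At MED16 the H4K12ac NaPr regions covered 219 and 185 bases of the stretch shown before the gene, but 8 and 0 bases of the body. H4K12pr covered 0 bases of that stretch, so the body call is opposite to the pattern at the start. CDK19 was at 3.80 and 3.50% against 1.25 and 0.403% (1.39 ± 0.40, adjusted p = 0.022). The NaPr input covered 1.28% of CDK19 and 2.75% of MED29, above both H4K12ac NaPr values of each gene, and 3.48% of MED9. It covered 0.899% of MED15 and 0% of MED7, MED16, MED22, MED24 and MED31. MED25 missed the threshold with 14.7 and 8.18% against 2.48 and 1.17% (2.13 ± 0.79, adjusted p = 0.0586). MED10, MED17, MED18, MED19, MED20 and MED26 also had log2 differences above 1 and were not called.

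The remaining values of the genes called at H4K12 place the NaPr contrast beside the other groups. MED29 had 34.5 and 6.94% of its body under H3K18ac NaPr, 43.4 and 27.1% under untreated H3K18ac, 16.6 and 14.2% under H3K18ac NaBu, 2.96 and 1.91% under H4K12ac NaBu, 7.14 and 2.1% under H3K18bu and 0% under H4K12bu. MED22 had 12.3 and 4.29% under H3K18pr, 25.8 and 3.53% under H3K18ac NaPr, 11.3 and 14.5% under untreated H3K18ac, 11 and 14.1% under untreated H4K12ac, 10.4 and 0% under H3K18ac NaBu, and 0% under H4K12ac NaBu and in the butyryl libraries. At both genes the untreated H4K12ac libraries lay above the H4K12ac NaPr libraries.

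MED31 had 11.8 and 8.99% under H3K18pr, 14.2 and 5.32% under H3K18ac NaPr, 10.7 and 9.38% under untreated H3K18ac and 24.5 and 22.1% under untreated H4K12ac. In NaBu-treated cells it kept 10.5 and 10.2% with H3K18ac, 4.57 and 2.82% with H4K12ac, 4.29 and 5.01% with H3K18bu and 2.39 and 3.74% with H4K12bu. Of the 9 called genes, only MED31 and MED15 had coverage in all 4 butyryl libraries.

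MED9 had 3.39 and 0% under H3K18pr, 13.9 and 5.77% under H3K18ac NaPr, 4.09 and 6.16% and 9.29 and 11.2% under untreated H3K18ac and H4K12ac, 6.29 and 1.28% and 2.21 and 1.5% under the same marks in NaBu, 0% under H3K18bu and 2.06 and 1.78% under H4K12bu. MED7 had 2.71 and 7.57% under H3K18pr, 9.3 and 2.81% under H3K18ac NaPr, 9.27 and 6.94% and 8.32 and 10.9% in the untreated libraries, 6.71 and 5.89% and 1.84 and 0% in the NaBu acetyl libraries, 1.62 and 0% under H3K18bu and 0% under H4K12bu. MED24 had 20.7 and 13.4% under H3K18pr, 22.7 and 7.89% under H3K18ac NaPr, 12.5 and 9.09% and 13.5 and 11.9% in the untreated libraries, 5.38 and 4.63% and 1.99 and 0% in the NaBu acetyl libraries, and 0 to 1.95% in the butyryl libraries. MED24 had more coverage in both H4K12pr libraries than in either untreated H4K12ac library, and so did MED9, whereas MED7 did not.

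MED6, MED23, MED26 and MED30, with a start region on 1 side only, were not called in the body contrast of that site. MED6, on the acetyl side at H3K18, had 0% under H3K18pr, 4.69 and 5.25% under H4K12pr, 5.52 and 3.77% under H4K12ac NaPr, 3.93 and 2.43% and 5.86 and 9.06% in the untreated libraries, 1.48 and 0% and 3.36 and 0% in the NaBu acetyl libraries and 0 to 0.978% in the butyryl libraries. MED23, at chr6:131573966-131628242, had 0% under H3K18pr, 2.98 and 0% under H4K12pr, 3.21 and 0.711% under H3K18ac NaPr, 3.2 and 1.65% under H4K12ac NaPr, 0.958 and 0.919% and 1.93 and 2.17% in the untreated libraries, 0 and 0.553% and 0.481 and 0% in the NaBu acetyl libraries and 0% in the butyryl libraries. No H3K18pr region thus lay along either gene. The lists do not tell an absent mark from one too weak to be called, and the part of depth was not tested. The NaPr input covered 1.11% of MED6 and 1.84% of MED23.

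On the propionyl side at H4K12, MED26, which recruits elongation factors to the polymerase, had 11.7 and 7.79% under H3K18pr, 16.2 and 13.6% under H4K12pr, 11.7 and 0.596% under H3K18ac NaPr and 4.13 and 1.25% under H4K12ac NaPr. Its untreated libraries had 7.62 and 6.13% and 11.8 and 10.7%, its NaBu acetyl libraries 6.64 and 3.29% and 3.06 and 0%, and its butyryl libraries 0 to 0.654%. MED30, a tail subunit, had 3.64 and 0% under H3K18pr, 0% under H4K12pr, 5.79 and 3.3% under H3K18ac NaPr, 1.07 and 0.926% under H4K12ac NaPr, 4.72 and 4.02% and 8.71 and 5.11% in the untreated libraries, 3.16 and 0% and 0% in the NaBu acetyl libraries and 0% in the butyryl libraries. The H4K12pr regions at the MED30 start therefore lay outside the gene, before its first base.

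MED25 had body coverage of 4.53 and 5.12% under H3K18pr, 13.3 and 1.22% under H3K18ac NaPr, 5.83 and 9.32% and 12.3 and 9% in the untreated libraries, 2.76 and 2.09% and 3.65 and 0% in the NaBu acetyl libraries and 0% in the butyryl libraries. MED16 had 7.28 and 1.64% under H3K18pr, 6.53 and 3.54% under H3K18ac NaPr, 4.53 and 2.29% under untreated H4K12ac, and 0% under H4K12ac NaBu and in the butyryl libraries. H3K18pr regions thus lay in the body of MED16 though none lay at its start.

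The count rested on single libraries. Without H4K12pr replicate 1 it was 3 (MED29 and MED31 higher and MED23 lower), and it was 4 without H4K12ac NaPr replicate 2. With 8158 regions in every list, 4 genes were called higher (MED9, MED15, MED24 and MED25) and 2 lower (MED6 and MED13). Of all 9231 genes then fitted, 1209 were called higher and 107 lower. The median of all genes was 0.03 in place of 1.03, and the MED16 difference turned to -0.02 and was not called.

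**Figure D4:**
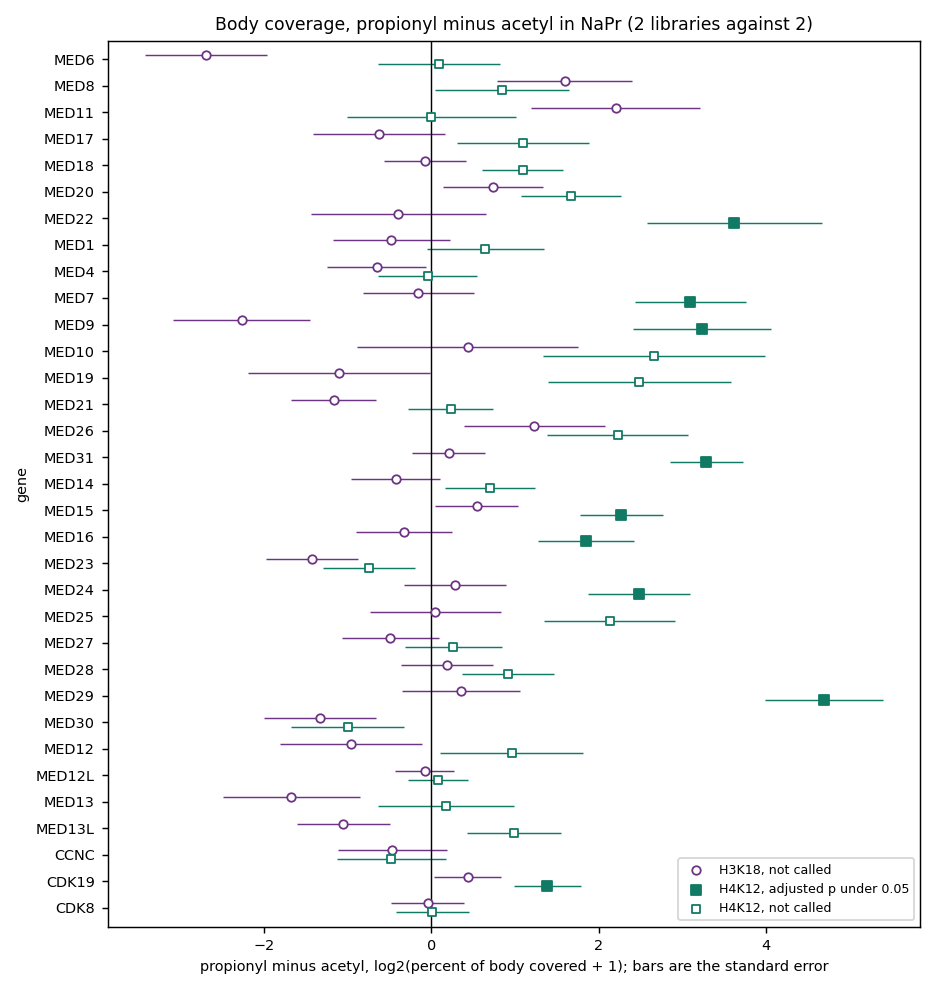
Propionyl minus acetyl difference in body coverage in NaPr-treated cells (x axis, log2 of percent + 1, bars are the standard error, 2 libraries against 2) for each gene (y axis), at H3K18 (circles) and H4K12 (squares). Filled symbols passed an adjusted p of 0.05 in limma, 9 genes at H4K12 and 0 at H3K18, and MED29 lies farthest to the right at 4.69.

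The propionyl minus acetyl difference at H3K18 was set against that at H4K12 in the same fit. It was lower at H3K18 for 4 genes (MED9, MED29, MED7 and MED31) and higher for 0. These are 12.1% of the set, close to the 11.4% of all genes called lower. The median was -1.40 for the set and -1.26 for all genes. MED9 gave -2.26 ± 0.82 at H3K18 and 3.23 ± 0.82 at H4K12, a gap of -5.49 ± 1.16 (SE, adjusted p = 0.0108). MED29 gave 0.35 ± 0.70 and 4.69 ± 0.70, with a gap of -4.34 ± 1.00 (adjusted p = 0.0155). MED31 and MED7 had gaps of -3.08 ± 0.62 (adjusted p = 0.00866) and -3.25 ± 0.93 (adjusted p = 0.0402). Without H3K18ac NaPr replicate 1 the median of all genes was -0.66. Leaving out H3K18ac NaPr replicate 1 moved the set's median to -0.50, kept MED31 (-2.44 ± 0.50, adjusted p = 0.0193) and lost MED9 (adjusted p = 0.0532), MED29 (0.0648) and MED7 (0.16), and added MED8. Leaving out H3K18ac NaPr replicate 2 gave 17 genes, and H4K12pr replicate 1 or H4K12ac NaPr replicate 1 gave 2 each. With the replicate number as a block 8 were called, and with equal numbers of regions 0.

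In the kinase module each paralog is described beside its partner. MED13, at chr17:61942605-62065278 on the minus strand, tethers the module to the core. H3K18pr regions covered 1.12 and 2.38% of its body and H4K12pr regions 17.2 and 20.2%. The acetyl libraries had 26.3 and 1.65% in H3K18ac NaPr, 20.1 and 13.4% in H4K12ac NaPr, 1.26 and 1.05% in untreated H3K18ac and 31.6 and 25.1% in untreated H4K12ac. All H4K12 libraries outside NaBu lay above all H3K18 libraries except H3K18ac NaPr replicate 1, the library that resembled untreated H4K12ac. NaBu-treated cells had 0.609 and 0% with H3K18ac, 1.89 and 0% with H4K12ac, and 0% in all 4 butyryl libraries.

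The coverage of MED13 was made of many short regions. Untreated H4K12ac had 103 and 77 regions over it, H4K12pr 39 and 41, and untreated H3K18ac 3 and 2. Outside the start window untreated H4K12ac still covered 31.0 and 24.5%, and untreated H3K18ac 0.458 and 0.238%. The start itself was the strongest of the set in untreated H3K18ac, so H3K18ac was high at the start and sparse along the gene. The difference between the histone sites was not tested.

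MED13L, the paralog of MED13 with 319789 bp at chr12:115957905-116277693, also had more coverage in H4K12 libraries outside NaBu than in H3K18pr and untreated H3K18ac libraries. H4K12pr covered 8.76 and 9.16%, H4K12ac NaPr 4.71 and 3.43% and untreated H4K12ac 9.30 and 8.18%. H3K18pr covered 1.34 and 0.582%, H3K18ac NaPr 6.75 and 1.05%, and untreated H3K18ac 0.519 and 0.755%. In NaBu the H3K18ac libraries had 0.338 and 0%, the H4K12ac libraries 1.38 and 0%, and the butyryl libraries at most 0.187%.

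MED12 activates the kinase with cyclin C, and MED12L is its paralog. MED12, at chrX:71118543-71144103, was covered over 9.42 and 7.55% in untreated H4K12ac, 1.84 and 2.44% in untreated H3K18ac, 7.23 and 0% in H4K12pr and 1.62 and 0% in H3K18pr. It had 4.10 and 0.939% in H3K18ac NaPr, 1.18 and 0% in H4K12ac NaPr, 2.30 and 0% in H3K18ac NaBu, and 0% in H4K12ac NaBu and all butyryl libraries. MED12L, at chr3:151085286-151437072, stayed between 1.37 and 2.54% in all propionyl libraries and in acetyl libraries of NaPr-treated and untreated cells. NaBu-treated cells had 1.00 and 0.683% with H3K18ac, 1.02 and 0.0503% with H4K12ac, and 0.0918 to 0.464% in the butyryl libraries. Its coverage was more even than that of MED12, but its body is 351787 bp long against 25561 bp, and the part of length was not tested. The NaPr input covered 0.896% of MED12L and 0% of MED12. The start window of MED12L was marked in fewer libraries, 9 against 11, or 10 against 11 at canonical starts.

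CDK8 and CDK19, the alternative kinases of the module, were covered over at most 4.81% of their bodies in any library. CDK8, at chr13:26254104-26420982, had 2.78 and 2.13% under H3K18pr, 3.78 and 4.77% under H4K12pr, 4.10 and 1.46% under H3K18ac NaPr and 4.81 and 3.68% under H4K12ac NaPr, with 1.89 and 1.29% and 4.26 and 4.71% in untreated H3K18ac and H4K12ac. NaBu-treated cells had 0.16 and 0.201% with H3K18ac, 1.02 and 0% with H4K12ac, 0 and 0.454% with H3K18bu, and 0% with H4K12bu. CDK19, at chr6:110609978-110815958, had 2.03 and 2.31% in H3K18pr, 2.28 and 0.668% in H3K18ac NaPr, 0.928 and 1.79% in untreated H3K18ac and 3.39 and 3.38% in untreated H4K12ac. NaBu-treated cells had 1.18 and 0.249% with H3K18ac, 0.312 and 0% with H4K12ac, and 0% in the butyryl libraries. Only CDK19 of the pair was called at H4K12 between propionyl and acetyl, and the difference between the paralogs was not tested.

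At the starts of this pair the order of strength was plain. CDK19 had a region of 10.1- and 9.16-fold with H3K18pr, 4.94- and 4.79-fold with H4K12pr and 4.10- and 3.65-fold with H3K18ac NaPr. CDK8 had 2.81- and 3.32-fold, 2.58-fold in H4K12pr replicate 1 only, and 2.61- and 1.97-fold. Neither had a region in H4K12ac NaPr or in any butyryl library. CDK19 lay above CDK8 in each library where both had a region in NaPr.

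CCNC, the cyclin of the module, lies at chr6:99542387-99568825. H3K18pr regions covered 4.72 and 5.92% of it and H4K12pr regions 7.06 and 11.1%, with 16.1 and 3.40% in H3K18ac NaPr and 16.2 and 10.1% in H4K12ac NaPr. Untreated cells had 4.91 and 3.88% for H3K18ac and 20.9 and 10.6% for H4K12ac. NaBu-treated cells had 2.87 and 2.38% with H3K18ac, 1.96 and 0.726% with H4K12ac, 1.24 and 0% with H3K18bu, and 0 and 1.02% with H4K12bu. CCNC was not called between propionyl and acetyl at either site (-0.46 ± 0.65 and -0.48 ± 0.65). Its H3K18 difference turned to 0.51 without H3K18ac NaPr replicate 1.

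**Figure D5:**
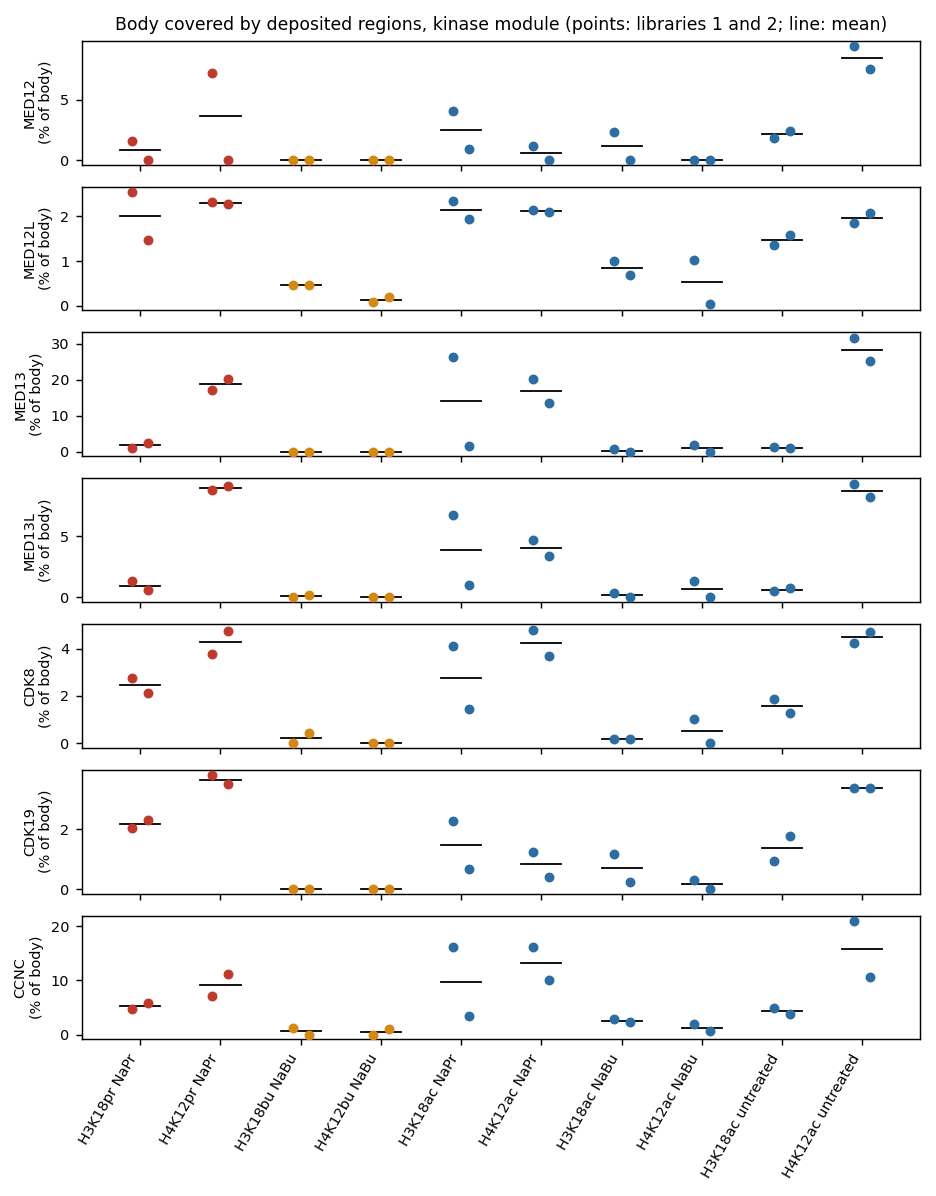
Percentage of the gene body under regions (y axis, a separate linear scale for each gene) for the 7 kinase module genes in the 10 acylation groups (x axis). Points are the 2 libraries and lines their mean. MED13 and MED13L are high in H4K12pr, in H4K12ac of NaPr-treated and untreated cells and in H3K18ac NaPr replicate 1, and butyryl points are at or near 0 for all 7 genes.

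MED1 and MED14 followed MED13 in part. MED1, at chr17:39404285-39451272, had 2.49 and 3.17% under H3K18pr, 19.7 and 12.5% under H4K12pr, 13 and 1.03% under H3K18ac NaPr, and 7.41 and 12.6% in H4K12ac NaPr. Untreated H3K18ac had 3.69 and 5.90% and untreated H4K12ac 17.3 and 15.7%. NaBu-treated cells had 1.54 and 1.58% with H3K18ac, 3.00 and 0.813% with H4K12ac, and 0.494 to 1.09% in the butyryl libraries. MED14, the backbone at chrX:40648305-40735858, had 1.43 and 1.80% under H3K18pr, 4.72 and 3.46% under H4K12pr, 5.04 and 1.04% under H3K18ac NaPr, 2.73 and 1.59% under H4K12ac NaPr, and 1.23 and 1.59% and 6.31 and 5.02% in untreated H3K18ac and H4K12ac. NaBu-treated cells had 0.933 and 0.22% with H3K18ac, 1.58 and 0% with H4K12ac, and at most 0.249% in butyryl libraries. The NaPr input covered 2.74% of MED14. At both genes the H4K12ac libraries of untreated cells lay above the H3K18ac libraries of the same cells without overlap.

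Against untreated cells, limma called 8 genes with lower H4K12ac coverage in NaPr and 0 with higher, where 19.5% of all genes were called lower. The median was -1.44 for the set and -0.98 for all genes. MED31 fell from 24.5 and 22.1% to 0 and 0% (-4.60 ± 0.44, adjusted p = 3.11e-05), MED29 from 31.1 and 24.4% to 0 and 2.33% (-3.97 ± 0.70, adjusted p = 0.00303), and MED11 from 11.8 and 12.0% to 0 and 0% (-3.69 ± 1.01, adjusted p = 0.0236). MED7, MED12, MED16, MED15 and CDK19 were the others. MED16 kept an H4K12ac region at its start in both NaPr libraries, lying mainly before the gene, so its call concerns the body alone. The count was 3 without either untreated H4K12ac library and 4 without H4K12ac NaPr replicate 2, and with equal numbers of regions it was 4 lower and 1 higher. Of 9231 genes fitted with equal numbers of regions, 30 of them in the set, 1239 were called lower and 80 higher. The medians were then -0.88 for the set and -0.25 for all genes. At the start, CDK8, CDK19, MED11, MED12L, MED23, MED25, MED26, MED30 and MED31 had a region in both untreated libraries and neither NaPr library, as 24.1% of all genes did.

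For H3K18ac, NaPr against untreated gave 0 called genes by limma, 3 at an unadjusted p under 0.05 (MED8, MED13 and MED13L), and 0.116% of all genes called, 4 higher and 17 lower. The set's median was 0.01 and that of all genes -0.06. With equal numbers of regions 1 member was called lower, and 48 of 9231 genes were called higher and 707 lower. The medians were then -0.69 for the set and -0.18 for all genes. MED13 and MED13L stood at 26.3 and 6.75% in NaPr replicate 1 and at 1.65 and 1.05% in replicate 2, so the high values were in the library that stood apart. Without it the set's median was -0.59, with 29 of 33 genes negative, and 1 gene was called, MED8, at -3.78 ± 0.44 (adjusted p = 0.000976), and without replicate 2, MED13 and MED13L were. The median of all genes without H3K18ac NaPr replicate 1 was -0.50, beside -0.59 for the set. No start window had a region in both libraries of 1 condition and neither of the other, where 1.72% of all genes did in either direction. A region was present in all 4 at 31 of 33 starts, against 49.8% of all genes.

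In NaBu against untreated cells, a contrast that coincides with sequencing run, limma called 31 of 33 genes with lower H4K12ac coverage in NaBu, all but MED11 and MED18, and 62.3% of all genes were called lower. The median was -2.60 for the set and -1.96 for all genes. MED19 went from 39.5 and 14.5% to 0 and 0% (-4.65 ± 1.09, adjusted p = 0.00319), MED8 from 21.5 and 17.3% to 0 and 0% (-4.34 ± 0.81, adjusted p = 0.00101) and MED13 from 31.6 and 25.1% to 1.89 and 0% (-4.10 ± 0.81, adjusted p = 0.00142). These differences were -4.65, -4.34 and -3.33 without H4K12ac NaBu replicate 2. Without H4K12ac NaBu replicate 2, the short list, 19 were called, each among the 31, and the medians were -2.07 and -1.46. With 8158 regions in every list 5 of 30 fitted genes of the set were called lower. Of all 9231 genes then fitted, 1638 were called lower and 167 higher, a share of lower calls close to that of the set. The medians were then -0.68 for the set and -0.31 for all genes. MED12L, MED13, MED13L, MED20 and MED29 turned to differences of 0.04 to 0.77 that were not called. The start windows of CDK8, MED8, MED12, MED12L, MED13L, MED16, MED23, MED25, MED26, MED27 and MED28 had a region in both untreated and neither NaBu library, as did 27.2% of all genes.

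For H3K18ac, MED16 was the only gene called between NaBu and untreated cells. It was covered over 0.879 and 0% in NaBu and 12.6 and 9.73% in untreated cells (-3.14 ± 0.57, adjusted p = 0.0076), and 7.01% of all genes were called lower. The call was lost without H3K18ac NaBu replicate 2, without untreated replicate 1 and with equal numbers of regions, where 5 other genes were called lower and 1 higher. MED12L and MED13L had a region at the start in both untreated and neither NaBu library, as 6.92% of all genes did.

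Butyryl libraries were set against acetyl libraries of the same NaBu-treated cells. At H3K18, limma called 3 genes lower in butyryl and 0 higher, with 15.3% of all genes called lower, so the share in the set was below that of all genes. The median was -0.96 for the set and -0.92 for all genes, and with equal numbers of regions -0.21 and -0.09. They were MED11 (0 and 0% in H3K18bu against 24.4 and 10.8% in H3K18ac, -4.11 ± 1.01, adjusted p = 0.0192), MED8 (0 and 0% against 9.83 and 13.1%, -3.63 ± 0.81, adjusted p = 0.0124) and MED7 (1.62 and 0% against 6.71 and 5.89%, -2.17 ± 0.66, adjusted p = 0.0424). Leaving out H3K18bu replicate 2 or H3K18ac NaBu replicate 1 left 0 called, leaving out H3K18bu replicate 1 left 1, and outside the start window 0 were called. CDK8, CDK19, MED8, MED9, MED11, MED12, MED26 and MED28 had a start region in both acetyl and neither butyryl library, which 21.4% of all genes did.

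Coverage of MED8, MED11 and MED19, called in these treatment or butyryl contrasts, was 0 in several groups. MED8, a head subunit, had 10.2 and 8.93% under H3K18pr, 8.4 and 12.6% under H4K12pr, 11.2 and 0% under H3K18ac NaPr and 3.6 and 7.6% under H4K12ac NaPr, with 10.8 and 15.1% and 21.5 and 17.3% for untreated H3K18ac and H4K12ac, 9.83 and 13.1% and 0% for these marks in NaBu, and 0% for H3K18bu and 0% for H4K12bu. MED11 had 16.2 and 14.3% under H3K18pr, 0% under H4K12pr, 11.4 and 0% under H3K18ac NaPr and 0% under H4K12ac NaPr, with 14.5 and 11.6% and 11.8 and 12% for untreated H3K18ac and H4K12ac, 24.4 and 10.8% and 7.98 and 0% for these marks in NaBu, and 0% for H3K18bu and 0% for H4K12bu. MED19, a middle subunit beside TMX2, had 13.7 and 4.5% under H3K18pr, 17.2 and 21.3% under H4K12pr, 35 and 9.39% under H3K18ac NaPr and 0 and 12% under H4K12ac NaPr, with 12.1 and 10.2% and 39.5 and 14.5% for untreated H3K18ac and H4K12ac, 3.74 and 0% and 0% for these marks in NaBu, and 0 and 2.35% for H3K18bu and 0% for H4K12bu.

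At H4K12, limma called 0 genes between butyryl and acetyl, with 3 at an unadjusted p under 0.05 (MED20, MED21 and MED29) and 0.0887% of all genes called. The median was -0.62 for the set and -0.38 for all genes, and both were 0 with equal numbers of regions. Without H4K12ac NaBu replicate 2 they were -1.16 and -0.76, again with 0 called. MED14, MED15, MED21 and MED29 had a start region in both acetyl and neither butyryl library, against 4.64% of all genes. In all 4 of these libraries a region was present at 6 starts (MED1, MED9, MED18, MED20, MED22 and MED31), against 4.92% of all genes. MED20 had the highest fold in H3K18bu replicate 1 and H4K12bu replicate 1, and stood at 7.93- and 4.58-fold in H4K12bu and 8.52- and 6.81-fold in H3K18bu.

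Genes of the machinery that Mediator works with were counted in the same fit. At H4K12, 7 of 12 RNA polymerase II subunit genes and 3 of 17 general transcription factor genes were higher in propionyl than acetyl libraries, where 27.0% of all genes were, with medians of 2.34 and 0.86 beside 1.03 for all genes. At H3K18 the counts were 0 higher in both lists and 1 lower among the polymerase genes. Under NaPr, 6 of 12 and 3 of 17 were lower in H4K12ac than in untreated cells, beside 19.5% of all genes, and under NaBu 12 of 12 and 16 of 17, beside 62.3%.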

How the data were processed

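The 20 acylation libraries and 3 inputs were each deposited as a list of enriched regions on hg38. The submitters' processing notes name bcl2fastq 2.17.1, cutadapt 1.8.1, Bowtie2 2.3.1 and MACS2 2.1.0, and the study's methods give the ENCODE pipeline with inputs as controls. Each deposited region carries the fold (ratio) over local background and the −log10 p-value and −log10 q-value, all as the authors' peak caller wrote them. Total reads are not in these lists, so the number of regions and an estimated background limit what is known of precision.

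Start windows of 1000 bp either side and body coverage were computed for GENCODE 44 protein-coding genes in Python 3.11.15 (numpy 2.4.6, pandas 2.3.3, matplotlib 3.10.9). Genes covered in at least 2 libraries entered 1 limma 3.58.1 fit (R 4.3.3) over the 10 acylation groups on log2(percent + 1), with Benjamini-Hochberg adjustment over all 18036 genes and a threshold of 0.05. Groups came from the labels. Alternatives were 8158 regions per list, a q-value filter, input regions removed, canonical starts, 500 bp windows, bodies outside the start window, a replicate block and each library left out. Values in every library were given for the kinase module, MED1, MED14, MED16, MED25, the up to 6 called members with the largest differences in each propionyl against acetyl contrast, and members with start regions on 1 side only in those contrasts. For other contrasts the up to 3 largest called members were named. The members and lists were chosen with earlier results of these data known. In simulated data for H3K18pr against H3K18ac, 200 of 18036 genes were shifted. Of genes shifted by 2 on the log2 scale limma recovered 33%, and of those shifted by 4, 85%. It also called 35 unshifted genes, so their share of the calls lay above the nominal 0.05. Calls at this threshold may thus hold more false ones than the adjusted p states. Results for 1 related gene list and 1 neighbouring gene are not reported here.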

Additional observations from a re-analysis of the deposited data

Results flagged for a closer look

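The propionyl minus acetyl difference in body coverage was not the same at H3K18 and H4K12 for 4 genes, by the limma test of the difference itself (H3K18 minus H4K12, log2 of percent + 1). They are 12.1% of the set, close to the 11.4% of all genes called lower. With equal numbers of regions 0 genes of the set were called. The gap was -5.49 for MED9, -4.34 for MED29, -3.25 for MED7 and -3.08 for MED31. In each the H4K12 difference was positive and past the threshold, and the H3K18 difference was -2.26, 0.35, -0.15 and 0.21 and not past it. In the same order, the H3K18 differences without H3K18ac NaPr replicate 1 were -1.69, 1.43, 0.565 and 0.84. Without H3K18ac NaPr replicate 1, the library that resembled untreated H4K12ac, MED31 remained past the threshold and the other 3 did not.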

How the results depend on the processing

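Values are mean numbers of Mediator start windows (first group minus second) and numbers of genes called by limma. Where a value moved, the cause was not tested. With 8158 regions in each list, the start difference was 5.0 in place of 11 (H4K12pr minus H4K12ac), -6.5 in place of -13 (H3K18bu minus H3K18ac), -3.5 in place of -9.5 (H4K12bu minus H4K12ac), -3.0 in place of -0.5 (H3K18ac, NaPr minus untreated), -7.0 in place of -5.0 (H3K18ac, NaBu minus untreated) and -11 in place of -16.0 (H4K12ac, NaBu minus untreated). In the same order, the q-value filter gave -18.5 for H3K18bu, -6.0 for H3K18ac in NaBu and -22.5 for H4K12ac in NaBu, and 500 bp windows gave -15.5 for H3K18bu and -2.0 for H3K18ac in NaPr. For H3K18ac in NaPr, canonical starts gave -1.0 and removing input regions reversed it to 2.0, and removal gave -3.0 for H3K18ac in NaBu. Leaving out each library gave -1.0 to 0.0 (H3K18ac in NaPr), -17.0 to -10.0 (H4K12ac in NaPr), -6.0 to -4.0 (H3K18ac in NaBu) and -21.0 to -11 (H4K12ac in NaBu), and -9.5 to -2.5 (H3K18pr, lowest and highest without its replicates 1 and 2) and -14.5 to -4.5 (H4K12bu, without H4K12ac NaBu replicates 2 and 1).

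Called genes with equal numbers of regions were 1 for H3K18pr, 1 for H3K18bu, 1 for H3K18ac in NaPr, 5 for H4K12ac in NaPr, 6 for H3K18ac in NaBu, 5 for H4K12ac in NaBu and 0 for the difference between sites. With input removed they were 1 for H3K18pr and 5 for H4K12ac in NaPr. The q-value filter gave 7 for H3K18bu, 2 for H3K18ac in NaBu and 7 between sites, and bodies outside the start window gave 0, 2 and 2 for these and 3 for H4K12ac in NaPr. Leaving out each library, with a lone sample assumed to vary like the other groups, gave 0 to 6 (H3K18pr), 3 to 10 (H4K12pr), 0 to 3 (H3K18bu), 0 to 2 (H3K18ac in NaPr), 3 to 6 (H4K12ac in NaPr), 0 to 3 (H3K18ac in NaBu), 19 to 30 (H4K12ac in NaBu) and 2 to 17 (between sites). Over all genes, equal numbers turned the split of higher and lower calls from 53 and 99 to 545 and 412 for H3K18pr, from 0 and 16 to 22 and 19 for H4K12bu, from 4 and 17 to 48 and 707 for H3K18ac in NaPr, from 52 and 1265 to 446 and 1689 for H3K18ac in NaBu, and from 86 and 2051 to 149 and 465 between sites. The same split went from 2 and 2765 to 55 and 606 for H3K18bu. For H4K12ac it went from 104 and 3524 to 80 and 1239 in NaPr and from 18 and 11243 to 167 and 1638 in NaBu. Replicate numbers pair no libraries of a contrast in the labels, and deviations of same-numbered libraries correlated at -0.0462 to 0.152. The cnt1 and cnt2 in the untreated titles link only untreated H3K18ac and H4K12ac libraries, which were not contrasted. With the replicate number as a block, 12 genes were called for H4K12pr, 4 for H3K18bu, 12 for H4K12ac in NaPr, 32 for H4K12ac in NaBu and 8 between sites, each including all those called without it.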
